A study of Mus musculus with 8 samples.

Results

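The 10 genes described here are the core sensors and chaperones of the unfolded protein response (UPR) in the endoplasmic reticulum (ER). They are Hspa5, Hsp90b1, Calr, Canx, Manf, Xbp1, Atf6, Atf6b, Ern1 and Wfs1, taken by name from the 24421 genes listed in each count table, and all 10 were listed in every sample. Single-cell RNA sequencing was done on pancreatic islet cells of male C57BL/6J mice aged 8 weeks. One group of 4 samples came from mice that underwent 50% partial pancreatectomy (PPTx) 2 days before islets were isolated. The other group of 4 samples, the control, came from mice of the same strain and age with no operation. Islets of 1 to 3 mice were pooled in a sample and dispersed with trypsin. The controls had no sham operation, and PPTx removed the splenic side, so the operation and the region of the pancreas that remained cannot be told apart.

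When unfolded protein builds up in the ER, sensors in its membrane signal to the nucleus. IRE1, encoded by Ern1, splices the messenger RNA of Xbp1 into a form that encodes an active transcription factor, and ATF6 is cut in the Golgi to release another. The third sensor, PERK, phosphorylates eIF2α and slows translation. Genes that these arms switch on include the lumenal chaperones. β-Cells make and fold large amounts of proinsulin, and they are known for their dependence on this pathway. Loss of WFS1, an ER membrane protein, causes Wolfram syndrome, in which diabetes develops.

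In the mm10 genome the chaperone genes lie at chr2:34772090-34776529 (Hspa5), chr10:86690841-86705444 (Hsp90b1), chr8:84842088-84846931 (Calr), chr11:50293957-50325673 (Canx) and chr9:106888753-106891938 (Manf). The sensors lie at chr1:170704457-170868585 (Atf6), chr17:34647146-34655074 (Atf6b) and chr11:106397620-106487796 (Ern1). Xbp1 lies at chr11:5520641-5525993 and Wfs1 at chr5:36966104-36988982. The gene model of Hspa5 overlaps that of Rabepk, and the model of Atf6 overlaps those of Gm23523, Gm25235, Gm29733 and Gm9929.

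The ER stress response element (ERSE) is the known binding site of ATF6 and XBP1 together with NF-Y, and it was searched for because it is the sequence through which UPR sensors act on chaperone promoters. RefSeq promoters of GRCm38.p6, from 250 bases before to 50 after the annotated start, were at hand for 8 of the 10 genes, all but Manf and Atf6. CCAAT followed after 9 bases of any kind by CCACG, on either strand, occurred in 4 of these 8 promoters and in 39 of 32851 mouse promoters of the same length (0.119%). The 4 were Hspa5, Hsp90b1, Calr and Canx, all chaperones. Their 250 bases before the start are printed 5′ to 3′ on the strand of the gene, with the element in capitals. Hspa5 stands on the plus strand at chr2:34771840-34772089, and the others on the minus strand, at chr10:86705445-86705694 (Hsp90b1), chr8:84846932-84847181 (Calr) and chr11:50325674-50325923 (Canx).
Hspa5: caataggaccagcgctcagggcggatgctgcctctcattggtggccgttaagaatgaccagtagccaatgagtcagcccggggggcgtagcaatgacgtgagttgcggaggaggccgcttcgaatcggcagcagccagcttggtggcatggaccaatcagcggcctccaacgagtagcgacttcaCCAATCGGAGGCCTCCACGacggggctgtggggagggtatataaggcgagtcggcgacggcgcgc
Hsp90b1: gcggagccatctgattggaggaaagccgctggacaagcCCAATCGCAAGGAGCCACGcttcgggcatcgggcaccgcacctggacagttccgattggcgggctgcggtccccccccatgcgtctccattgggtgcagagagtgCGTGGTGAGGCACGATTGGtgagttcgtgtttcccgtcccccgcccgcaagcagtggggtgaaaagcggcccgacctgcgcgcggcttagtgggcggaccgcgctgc
Calr: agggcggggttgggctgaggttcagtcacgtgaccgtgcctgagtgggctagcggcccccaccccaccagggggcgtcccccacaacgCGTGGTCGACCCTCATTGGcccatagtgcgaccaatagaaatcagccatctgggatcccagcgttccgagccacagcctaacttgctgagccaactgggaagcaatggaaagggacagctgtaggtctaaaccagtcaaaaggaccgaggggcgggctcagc
Canx: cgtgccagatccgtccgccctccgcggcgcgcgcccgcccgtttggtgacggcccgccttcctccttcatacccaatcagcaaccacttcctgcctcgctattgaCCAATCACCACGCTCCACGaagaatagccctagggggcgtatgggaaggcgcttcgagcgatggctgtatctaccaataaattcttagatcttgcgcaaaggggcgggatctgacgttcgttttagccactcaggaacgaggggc

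The element in Hspa5 lay 65 to 47 bases before the start, read in the direction of the gene. Hsp90b1 held a pair of elements, 1 in the direction of the gene at 212 to 194 bases and 1 reversed at 107 to 89 bases before the start. The element of Canx lay at 145 to 127 bases in the direction of the gene, and that of Calr lay reversed at 162 to 144 bases. The related element ERSE-II, ATTGG followed after 1 base by CCACG, was in 0 of the 8 promoters and in 0.0365% of all promoters. The UPR element TGACGTGG was in 0 of 8 and in 0.676% of all. CCACG alone, which is contained in both the ERSE and ERSE-II, was found in 5 of 8, the fifth being Ern1, and in 32.8% of all promoters. These are matches of letters in a window and not measurements of binding.

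A total of 1232 of 1240 cells were kept. Each cell was placed in the class of the hormone with the most unique molecular identifiers (UMIs, 1 per captured messenger RNA molecule), if that hormone had at least 2 times the UMIs of the next. This gave 953 β-cells (insulin), 114 α-cells (glucagon), 130 PP cells (pancreatic polypeptide), 13 δ-cells (somatostatin) and 22 cells with mixed hormones. The samples held 236645 to 1580152 UMIs in all, and hormone transcripts took 50.6% to 60.1% of them. The hormone transcripts are here Ins1, Ins2, Gcg, Sst and Ppy, and levels are given as UMIs per 1000000 UMIs outside these 5 (CPM), summed over the cells of a class in a sample. Other islet hormones stayed in the totals: Iapp, amylin, took 10.99% to 12.22% of them in β-cells, and Pyy, peptide YY, took 17.8% to 27.9% in PP cells, 4.10% to 14.7% in control non-β cells and 15.9% to 27.1% in PPTx non-β cells. Levels in CPM are lowered by these shares, while the tests rescale the sums (TMM). When Iapp, Pyy and Ghrl were also left out, an alternative added after seeing the data and not run for PPTx in α-cells, the calls of the 10 genes stayed but for Xbp1 in α-cells against β-cells, which then passed. The median cell had 2559 such UMIs in the β class, 2101.5 in the α class and 2551.5 in the PP class. The summed other markers of each endocrine type were highest in their own class, the PP cell sum through Pyy: Fxyd6 and Isl1, also on that list, were not highest in PP cells, and Casr of the δ-cell list had 0 UMIs in δ-cells. The summed β-cell markers stood at 127992 CPM in β-cells, 3439 in α-cells and 9957 in PP cells. Mafa, a defining β-cell gene, was nearly undetected at 0.756 CPM in β-cells. In 1 PPTx sample the β class carried Ghrl, the hormone of ε-cells, at 14001 CPM, and 1 cell barcode occurred in more than 1 sample.

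All levels of the 10 genes were first compared between cell types. Hspa5, Manf, Calr, Atf6 and Wfs1 were lower in both α-cells and PP cells than in β-cells, by 1.88-fold to 9.55-fold. Hsp90b1, Canx and Xbp1 had smaller differences and did not pass the test in either class, though each passed under some alternative in α-cells. Each class was compared with β-cells of the same samples (edgeR quasi-likelihood test with sample as a block, Benjamini-Hochberg adjustment over all genes). Samples in a class needed at least 5 cells, which left 6 samples for α-cells and 7 for PP cells. The mice were pooled within samples, so that p-values measure the spread between samples, which may be partly technical. In sums over cells, fewer molecules per cell and fewer cells that carry the transcript cannot be told apart.

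**Figure D1:**
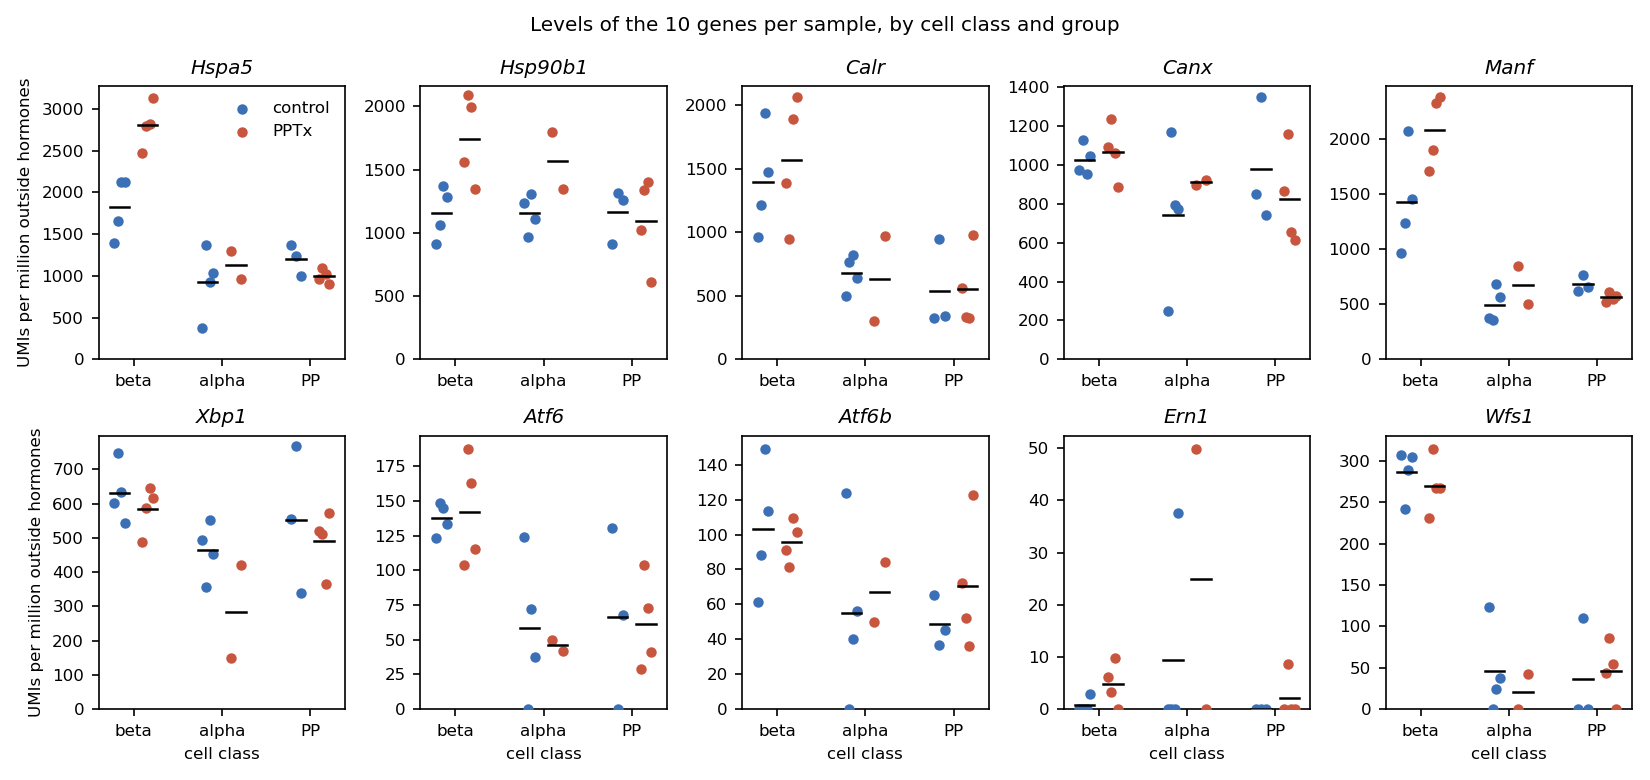
Level of each of the 10 genes in each sample (CPM, UMIs per 1000000 UMIs outside hormone transcripts, linear axes), by cell class. Blue points are control samples, red points PPTx samples and black lines the means; Hspa5 in β-cells lies between 1391 and 3135 and above every α-cell and PP cell sample.

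Hspa5 encodes BiP, the main lumenal HSP70 chaperone and the protein that holds the sensors inactive. Its lowest, median and highest level was 1391, 2301 and 3135 in β-cells (mean 2316 ± 602, SD, n = 8), 371, 1000.2 and 1370.2 in α-cells (993 ± 355, n = 6) and 898, 1019 and 1371 in PP cells (1083 ± 168, n = 7). No α-cell or PP cell sample reached the lowest β-cell sample. The log2 difference from β-cells was -1.03 in α-cells (SE 0.16, adjusted p = 8.35e-10) and -0.98 in PP cells (SE 0.13, adjusted p = 1.02e-11). The Hspa5 level was thus 2.05-fold and 1.97-fold higher in β-cells.

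Manf encodes a small secreted ER protein that is itself induced by ER stress. The Manf level spanned 960.0 to 2379 in β-cells with a median of 1803, 355 to 848 in α-cells with a median of 534, and 519 to 767 in PP cells with a median of 614. The 3 means were 1753 ± 511, 554 ± 189 and 613 ± 82.2. Again no sample of the other classes reached the lowest β-cell sample. Manf was lower than in β-cells by log2 values of -1.50 in α-cells (SE 0.17, adjusted p = 1.05e-16) and -1.40 in PP cells (SE 0.14, adjusted p = 2.86e-19), so the level in β-cells was 2.83-fold and 2.64-fold higher.

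Calr and Canx encode calreticulin and calnexin, the soluble and the membrane-bound lectin chaperones that hold glycoproteins in the calnexin cycle. Calr stood at 946 to 2061 in β-cells (median 1428, mean 1483 ± 439), 299 to 966 in α-cells (median 700.4, mean 663 ± 239) and 327 to 979.9 in PP cells (median 338, mean 545 ± 299). The highest α-cell and PP cell samples overlapped the lowest β-cell sample, but Calr was lower in every one of the 6 and 7 samples when set against β-cells of the same sample. Calr differed by -1.06 in α-cells (SE 0.17, adjusted p = 4.54e-09) and by -1.39 in PP cells (SE 0.14, adjusted p = 7.5e-18) on the log2 scale. Canx stood at 885 to 1239 in β-cells (median 1054, mean 1047 ± 111), 247 to 1167 in α-cells (median 845, mean 800.0 ± 305) and 612 to 1351 in PP cells (median 849, mean 891 ± 271). These ranges overlapped, and the log2 differences of -0.27 (SE 0.16, 95% interval -0.59 to 0.04) and -0.07 (SE 0.13, -0.32 to 0.19) did not pass the test, with adjusted p = 0.179 and 0.746. The Canx call depended on the processing: in α-cells it passed with DESeq2 size factors (-0.38, adjusted p = 0.0305) and with no filter on low counts (-0.83, adjusted p = 0.00225), and in PP cells with no filter (-0.43, adjusted p = 0.0221), and over all alternatives, left-out samples included, the adjusted p ran from 0.00225 to 0.321 in α-cells and from 0.0221 to 0.989 in PP cells. With no filter, the median log2 difference over all genes was itself -0.52 in α-cells and -0.44 in PP cells. Whether Calr and Canx differed from each other was not tested. Both of their promoters hold the element printed above.

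Hsp90b1 encodes GRP94, the HSP90 of the ER lumen. Its level was 911 to 2088 in β-cells (median 1360, mean 1452 ± 414), 964 to 1795 in α-cells (median 1271, mean 1293 ± 283) and 612 to 1401 in PP cells (median 1263, mean 1124 ± 287). The 3 classes overlapped, though set against β-cells of the same sample Hsp90b1 was lower in 7 of 7 PP cell samples and in 5 of 6 α-cell samples. With Iapp, Pyy and Ghrl also left out of the totals it was lower in 5 of 7 PP cell samples. The log2 difference was -0.13 in α-cells (SE 0.15, adjusted p = 0.551, 95% interval -0.42 to 0.17) and -0.24 in PP cells (SE 0.13, adjusted p = 0.141, -0.49 to 0.01). Without the control replicate 4 the PP value was -0.33, with an adjusted p of 0.0469 (edgeR), and the adjusted p over the other alternatives ran from 0.000113 to 0.498. The lowest was that with no filter on low counts (-0.60), where the median over all genes was -0.44.

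Among the sensors, Atf6 encodes a membrane-bound transcription factor. The Atf6 level was 104 to 187 in β-cells (median 139, mean 139.9 ± 27.1, 392 UMIs), 0 to 124 in α-cells (median 45.9, 14 UMIs) and 0 to 131 in PP cells (median 67.7, 26 UMIs). Atf6 was lower in 5 of 6 α-cell samples and in 7 of 7 PP cell samples, by log2 values of -1.34 (SE 0.41, adjusted p = 0.00458) and -0.91 (SE 0.31, adjusted p = 0.0152). With Iapp, Pyy and Ghrl also left out of the totals, Atf6 was lower in 6 of 6 and 6 of 7 samples. Its relative Atf6b stood at 61.5 to 149 in β-cells (median 96.4), 0 to 124 in α-cells and 36.4 to 122 in PP cells. Atf6b was too sparse for the fit in α-cells, where an exact permutation test over 6 samples gave a two-sided p of 0.188, and its log2 difference of -0.58 in PP cells (SE 0.35) had an adjusted p of 0.209 in edgeR. These values rest on 12 and 21 UMIs of Atf6b. With no filter on low counts, edgeR called 9 of the 10 genes lower in α-cells, beside 1065 of 14002 genes. The median log2 difference over all genes was -0.52 in that fit.

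Ern1 was barely captured in any class. It had 9 UMIs in 953 β-cells, 3 in 114 α-cells and 1 in 130 PP cells, and the mean level was 2.75 ± 3.59 CPM in β-cells. The exact two-sided permutation p was 0.5 for α-cells and 0.375 for PP cells. Xbp1, the target of IRE1 and counted here without regard to splicing, stood at 488 to 748 in β-cells (median 610.4, mean 608 ± 76.5), 149.6 to 552 in α-cells (median 436, mean 404 ± 141) and 338 to 767 in PP cells (median 519.0, mean 518 ± 143). It was lower in 6 of 6 α-cell samples, with a log2 difference of -0.45 (SE 0.19) that missed the threshold at an adjusted p of 0.0557 in edgeR. That call changed with the processing: it passed under 7 of 9 alternatives, over which the adjusted p ran from 0.00127 to 0.0718. In PP cells the log2 difference of Xbp1 was -0.05 (SE 0.15, adjusted p = 0.832).

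Wfs1 encodes wolframin, the ER membrane protein named above. Among the fitted genes of the 10, it had the largest difference from β-cells in α-cells, PP cells and non-β cells. Its level was 232 to 315 in β-cells (median 279, mean 278 ± 31.1, 747 UMIs), 0 to 124 in α-cells (median 30.8, mean 37.9 ± 45.7, 7 UMIs) and 0 to 109.6 in PP cells (median 43.3, mean 42.0 ± 44.7, 19 UMIs). All α-cell and PP cell samples were below the lowest β-cell sample. The log2 difference of Wfs1 was -3.26 in α-cells (SE 0.42, adjusted p = 1.94e-13) and -2.27 in PP cells (SE 0.30, adjusted p = 1.17e-11). The α-cell value rests on 7 UMIs, of which the 124 CPM of the smallest sample is 1. When every cell was thinned to 1100 UMIs outside hormones, 25.5% of 860 β-cells, 3.54% of 113 α-cells and 5.65% of 124 PP cells had a Wfs1 UMI, and the shares before thinning were 49.1%, 5.26% and 13.8%. The β-cell markers in α-cells and PP cells stood at the levels given above, and their part in the Wfs1 values was not tested.

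In the count over the list, 5 of the 8 genes tested in α-cells and 5 of the 9 tested in PP cells were lower and 0 were higher. Over all genes tested, 20.2% of 2126 were lower in α-cells and 17.9% of 2905 were lower in PP cells. The median log2 difference was -1.05 over the 8 genes in α-cells, beside -0.04 over all genes tested, and -0.91 over the 9 genes in PP cells, beside -0.06. With DESeq2 size factors in place of TMM, the α-cell comparison as a whole moved from 345 higher and 430 lower genes to 279 higher and 536 lower, and the median of all genes moved to -0.17. Levels did not overlap for Hspa5, Manf and Wfs1 in both classes, against 9.97% of all genes with lower non-overlapping levels in α-cells and 10.1% in PP cells. Stress genes that tissue dispersal induces also differed by class, at 892 CPM in β-cells, 3661 in α-cells and 4559 in PP cells, and their part in the differences was not tested.

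When all α-, δ- and PP cells of a sample were summed as non-β cells, all 8 samples entered. Wfs1 (-2.28, SE 0.23, adjusted p = 4.19e-12), Manf (-1.39, SE 0.12, 4.69e-14), Calr (-1.21, SE 0.12, 2.46e-12), Hspa5 (-0.98, SE 0.12, 1.83e-09), Atf6 (-0.95, SE 0.23, 0.000585) and Atf6b (-0.85, SE 0.27, 0.0106) were lower than in β-cells on the log2 scale. These are 6 of 9 genes tested, beside 21.0% of 2918 genes that were lower. Hspa5, Calr, Manf, Atf6 and Wfs1 were lower in 8 of 8 samples with no overlap of levels, where 7.95% of all genes had lower levels with no overlap. With Iapp, Pyy and Ghrl also left out, all 5 were still lower in 8 of 8 samples, but the levels of Hspa5 and Calr overlapped. Hsp90b1 at -0.20 (SE 0.12, adjusted p = 0.193), Canx at -0.14 (SE 0.11, 0.339) and Xbp1 at -0.13 (SE 0.13, 0.431) did not pass, although Canx was lower in 8 of 8 samples and the others in 7 of 8. With no filter on low counts Hsp90b1 (-0.46, adjusted p = 0.00606) and Canx (-0.40, adjusted p = 0.0257) passed in edgeR, which made 8 of 10 genes beside 1969 of 14497 called in either direction. The median log2 difference over all genes was -0.24 in that fit. For Ern1, with 4 UMIs in non-β cells, the exact permutation p was 0.625.

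**Figure D2:**
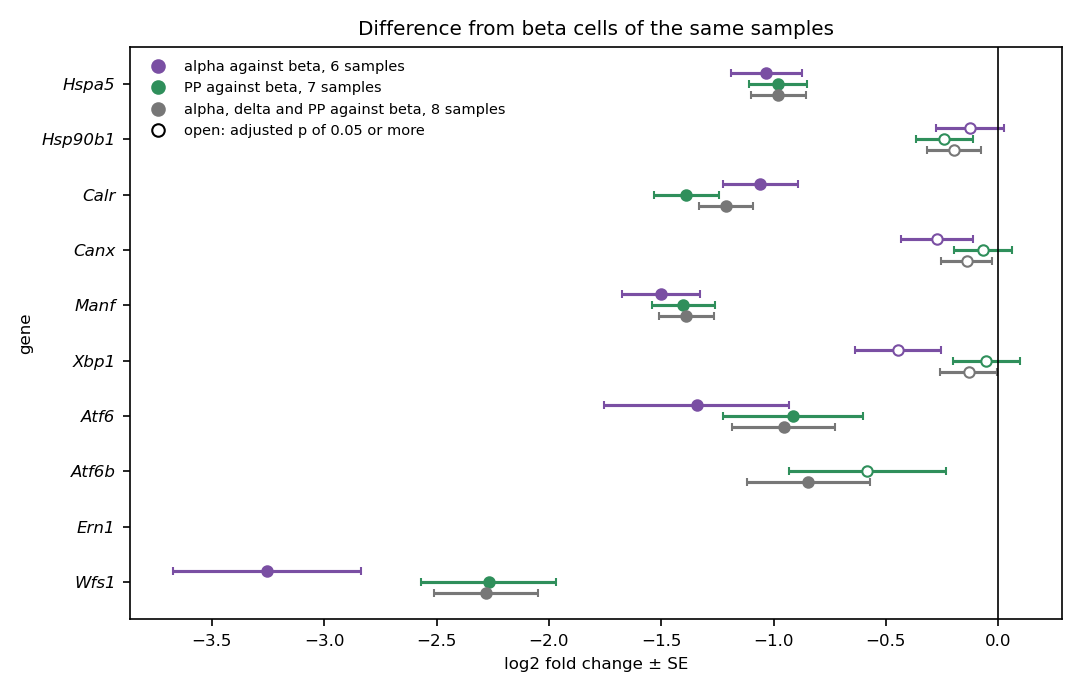
Log2 difference of each gene from β-cells in α-cells, PP cells and all non-β cells, with the standard error as bars; filled points have an edgeR adjusted p under 0.05 and open points do not. Wfs1 lies lowest in each comparison, from -3.26 to -2.27, whereas Hsp90b1, Canx and Xbp1 lie nearest to 0.

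α-Cells and PP cells were next set against each other in the 5 samples that held enough of both. None of the 6 genes tested passed (edgeR), 1 of them (Xbp1, log2 -0.58 in α-cells, adjusted p = 0.149) had an unadjusted p under 0.05, and DESeq2 also called 0. The test called 13.6% of all 469 genes, while 27.3% of them fell under 0.05 before adjustment. The log2 differences of the other 5 ran from -0.36 (Canx) to 0.35 (Calr). The 4 genes outside the fit had exact permutation p-values of 0.375 (Atf6), 0.938 (Atf6b), 0.5 (Ern1) and 0.375 (Wfs1), where 0.0625 is the smallest that 5 samples allow.

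δ-Cells were too few for a test, with 13 cells in all, and their pooled values cover counting error only. Hspa5 had 39 UMIs in δ-cells, a level of 1539 CPM (exact Poisson 95% interval 1094 to 2104), which lies between the means of β-cells and PP cells. Hsp90b1 stood at 1499.6 (1061 to 2058), Canx at 1223 (831 to 1736) and Xbp1 at 789 (482 to 1219). Intervals of these 3 genes include their β-cell means. Calr stood at 749.8 (451 to 1171) and Manf at 947 (607 to 1409), with intervals wholly under the β-cell means of 1483 and 1753. These β-cell means cover both groups, while 10 of the 13 δ-cells came from control samples. The β-cell means of Hspa5 and Manf were lower in control than in PPTx, so the groups are not matched here. Wfs1 had 5 UMIs at 197 (64.1 to 460.5), Atf6 had 4 at 158, Atf6b had 1 at 39.5, and the 0 UMIs of Ern1 allow a level of up to 118 by the floor of 3 counts, or 146 as the upper end of the exact Poisson interval. In the 22 mixed cells Hspa5 was at 1586, Manf at 658 and Wfs1 at 67.5 CPM.

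Other genes of the pathway were taken from 6 lists: BiP co-chaperones and exchange factors, disulfide isomerases and oxidases, the calnexin cycle, ER-associated degradation, the PERK arm, and the processing of ATF6 and IRE1. In non-β cells 25 of 34 tested genes were lower than in β-cells and 0 higher, beside 21.0% lower over all genes, with a median log2 difference of -0.92 beside -0.03. In α-cells 22 of 32 were lower (20.2% of all genes, median -1.04 beside -0.04) and in PP cells 22 of 34 (17.9% of all genes, median -0.85 beside -0.06), again with 0 higher. By list in non-β cells, all 4 calnexin cycle genes were lower, as were 7 of 9 co-chaperones, 5 of 7 disulfide enzymes and 8 of 9 degradation genes. Of the PERK arm 1 of 2 was lower (Asns, asparagine synthetase, -1.06), and of the ATF6 and IRE1 processing genes 0 of 3. The largest differences in non-β cells were those of Ero1lb, the pancreatic ER oxidoreductase (log2 -3.67), Edem1, which draws misfolded glycoproteins into degradation (-2.82), and Sdf2l1, a partner of BiP (-2.56). Ero1lb also stands among the β-cell markers used to check the classes. Between α-cells and PP cells 1 of 7 genes tested was called, Pdia6, a disulfide isomerase, at -0.83 in α-cells, which is near the 13.6% called over all genes.

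PPTx was then compared with control within β-cells. Hspa5 stood higher in all 4 PPTx samples than in any control sample, and Hsp90b1 and Manf had means about as far apart, but none of the 3 passed the adjusted threshold across all genes. Atf6, Atf6b, Xbp1, Wfs1 and the lectin chaperones differed by less than their own standard errors. In β-cells edgeR called 17 of 5845 genes (0.291%), 10 higher and 7 lower in PPTx. It called 0 of the 9 genes tested, 3 of which had an unadjusted p under 0.05, beside 9.7% of all genes, and DESeq2 called 2, beside 0.445% of all genes.

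Hspa5 in β-cells was at 1391, 1661, 2125 and 2127 in control replicates 1 to 4 and at 2474, 2791, 2822 and 3135 in PPTx replicates 1 to 4. These groups do not overlap (mean 1826 ± 364 against 2805 ± 270.0, SD, n = 4 each), which held for 5.94% of all genes in either direction and for 2.41% with PPTx higher. The log2 difference of 0.65 (SE 0.15, 95% interval 0.36 to 0.94) is a 1.57-fold higher level with an adjusted p of 0.0533 in edgeR. DESeq2 gave an adjusted p of 0.0113, and the range over 12 alternatives was 0.00489 to 0.0864, with 6 of the 12 under the threshold. When single samples were left out, the adjusted p ran from 0.0488 (without control replicate 4) to 0.263.

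Hsp90b1 was at 911, 1061, 1374 and 1284 in control and at 1557, 2088, 1994 and 1346 in PPTx. Of the PPTx samples 3 lay above the highest control sample and the last lay within the control range. The log2 difference of 0.62 (SE 0.16, 0.31 to 0.93) had an adjusted p of 0.107 in edgeR and of 0.0386 in DESeq2, with a range of 0.0253 to 0.176 over 12 alternatives and an adjusted p of 0.041 without PPTx replicate 4. Manf was at 960.0, 1237, 2068 and 1449.9 in control and at 1706, 1899, 2324 and 2379 in PPTx. Control replicate 3 overlapped the PPTx samples, 2 of which lay above it. Manf differed by 0.56 on the log2 scale (SE 0.18, 0.21 to 0.90, adjusted p = 0.238 in edgeR, 0.0246 to 0.419 over 12 alternatives), and the adjusted p was 0.0486 without control replicate 3.

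Calr was at 960.0, 1215, 1938 and 1473 in control and at 1383, 946, 1889 and 2061 in PPTx, Canx at 972, 1127, 954 and 1046 against 1091, 1239, 1061 and 885. Neither set separated, with log2 differences of 0.18 (SE 0.21, -0.22 to 0.58, adjusted p = 0.852) and 0.11 (SE 0.14, -0.17 to 0.39, adjusted p = 0.876). Xbp1 was at 603, 748, 635 and 543 in control and at 488, 587, 646 and 618 in PPTx (log2 -0.07, SE 0.15, adjusted p = 0.938). Wfs1, the fitted gene with the steepest difference from β-cells, was at 308, 242, 289.6 and 305 in control and at 232, 315, 267 and 267 in PPTx (log2 -0.03, SE 0.17, -0.36 to 0.31, adjusted p = 0.981). Its means of 286 ± 30.5 and 270.2 ± 34.1 lay within 1 SD of each other. Atf6 was at 123, 148, 145 and 134 against 104, 187, 163 and 115 (log2 0.12, SE 0.21, adjusted p = 0.919), and Atf6b at 61.5, 88.0, 149 and 113 against 91.4, 81.5, 109 and 101 (log2 -0.23, SE 0.23, adjusted p = 0.824). The 95% intervals of both sensors reach 0.53 and 0.23 at the upper end. The sign of the Atf6, Atf6b, Wfs1 and Xbp1 differences turned when single samples were left out. Ern1 had 1 UMI in control and 8 in PPTx β-cells, at 0, 0, 0 and 2.91 against 6.09, 3.26, 9.71 and 0 CPM, with an exact two-sided permutation p of 0.143 where 0.0286 is the smallest possible.

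**Figure D3:**
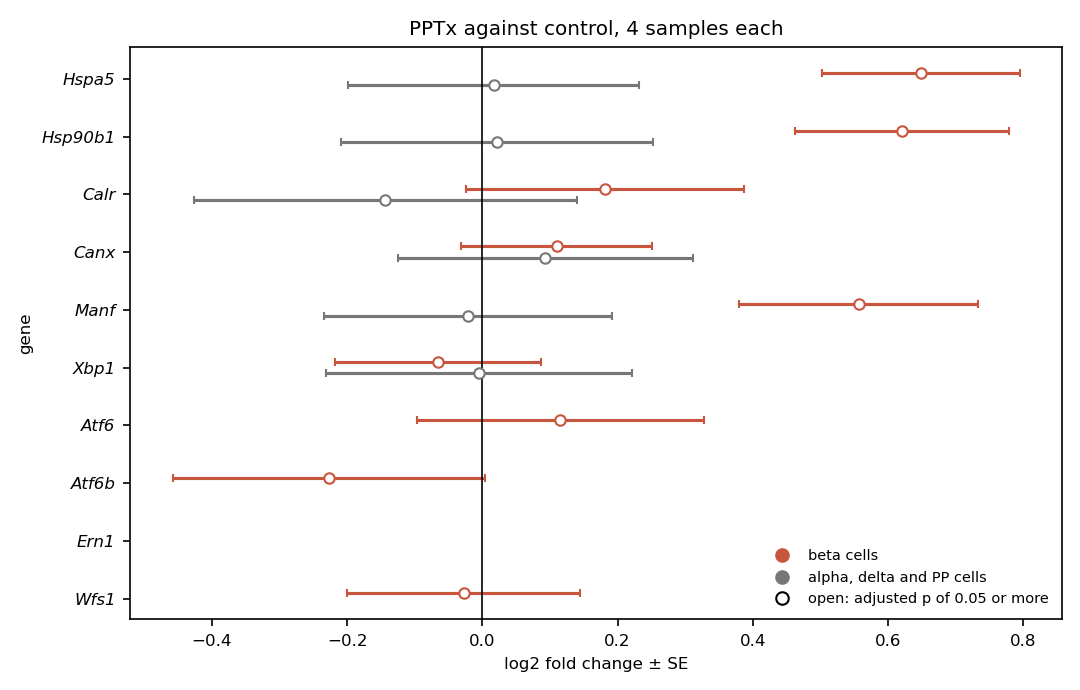
Log2 difference of PPTx from control for each gene, with the standard error as bars, in β-cells (red) and in non-β cells (grey); all points are open since no edgeR adjusted p was under 0.05. In β-cells Hspa5, Hsp90b1 and Manf lie at 0.65, 0.62 and 0.56 and the other genes between -0.23 and 0.18.

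Of the pathway lists, 3 of 41 tested genes were higher in PPTx β-cells and 0 lower, with a median log2 difference of 0.35, beside 0.171% of all genes that were higher. They were Sdf2l1 (1.05, SE 0.18, adjusted p = 0.00992), Creld2, a secreted disulfide isomerase-like protein induced by ER stress (1.04, SE 0.19, adjusted p = 0.015), and Pdia6 (0.68, SE 0.13, adjusted p = 0.025), all in edgeR. Pdia6 and Creld2 hold an ERSE in the promoter window and Sdf2l1 does not. Each of these calls was lost without PPTx replicate 1, control replicate 1 or control replicate 2, and that of Pdia6 also without control replicate 4, while the log2 differences stayed between 0.63 and 1.24. No gene of the degradation list (10 tested), the PERK arm (6), the calnexin cycle (4) or the ATF6 and IRE1 processing list (3) passed. Some cell type markers also separated the groups in the β class. Of 30 marker genes with levels in both groups, 3 were higher in every PPTx sample than in any control sample: Pyy at 2017 to 5919 CPM against 185 to 1816, Ppy at 2392 to 7445 against 394 to 2324, both of PP cells, and Gc, of α-cells, at 179.8 to 372 against 124 to 176. Lower in every PPTx sample were Slc2a2, the glucose transporter of β-cells, at 404 to 466 against 591 to 715, and Hhex, of δ-cells, at 0 to 3.05 against 4.26 to 14.5. Hhex rests on 9 UMIs in control and 1 in PPTx. Over all 5845 genes tested, 2.41% lay wholly higher in PPTx and 5.94% separated in either direction. The summed PP cell markers other than Ppy stood at 677 to 2545 in control and 2532 to 6592 in PPTx, and the α-cell markers at 3699 to 4467 and 4461 to 5499.8. Acinar markers reached 111 in control and stood at 26.7 to 410 in PPTx, and immune markers stood at 55.0 to 192 and 46.1 to 420. The genes induced by dispersal stood at 528 to 1255 in control and 410 to 2084 in PPTx β-cells. The part of these transcripts in the differences was not tested.

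In non-β cells the same 3 chaperones showed no such separation. Hspa5 was at 861, 1365, 1001 and 1063 in control and at 929, 1121, 1047 and 983 in PPTx (log2 0.02, SE 0.22, -0.40 to 0.44). Hsp90b1 was at 1436, 957, 1328 and 1197 against 966, 1408, 1401 and 567 (log2 0.02, SE 0.23), and Manf at 574, 567, 712 and 632 against 520.1, 649, 572 and 567 (log2 -0.02, SE 0.21). PPTx and control overlapped for all 3. In this comparison edgeR called 0.775% of 1420 genes, 0 of the 6 members tested (0 of these at an unadjusted p under 0.05, and 0 in DESeq2) and 0 of 17 pathway genes, and the log2 differences of the 6 ran from -0.14 (Calr) to 0.09 (Canx). The mixture of types differed between the groups: α-cell markers in non-β cells stood at 30854 to 64297 CPM in control and at 10750 to 22093 in PPTx, and PP cell markers at 41415 to 147731 and at 159750 to 271576. Exact permutation p-values for the sparse genes were 0.571 (Atf6), 0.457 (Atf6b), 1 (Ern1) and 0.771 (Wfs1).

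PP cells alone, with 3 control and 4 PPTx samples, gave a comparison within 1 class. Control replicates 2, 3 and 4 held only 9, 8 and 13 PP cells. The operation and the region that remained cannot be told apart here either. Iapp took 0.12% to 0.46% of the totals of PP cells in control and 0.32% to 1.73% in PPTx. Hspa5 was at 1371, 1242 and 992 in control and at 966, 1090.3, 1019 and 898 in PPTx (log2 -0.26, SE 0.24), and Hsp90b1 at 914, 1315 and 1263 against 1024, 1341, 1401 and 612 (log2 -0.05, SE 0.27). Manf was at 620.4, 767 and 654 in control and at 519, 614, 546 and 572 in PPTx (log2 -0.28, SE 0.26, adjusted p = 0.925 in edgeR). The Manf samples did not overlap, PPTx being lower, as in 2.92% of the 651 genes tested. EdgeR called 0 of the 6 members tested, 0 of 11 pathway genes and 0.154% of all genes, and no member had an unadjusted p under 0.05 in edgeR or passed in DESeq2.

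For α-cells only 2 PPTx samples held 5 or more cells, and the comparison with 4 control samples was added after the data were seen. Hspa5 in α-cells was at 371, 1370.2, 921 and 1035 in control and at 1297 and 966 in PPTx (log2 0.32, SE 0.34, 95% interval -0.35 to 0.98, adjusted p = 0.877 in edgeR). Hsp90b1 was at 1237, 964, 1305 and 1109.9 against 1795 and 1344 (log2 0.55, SE 0.28, -0.0021 to 1.10, adjusted p = 0.605), and Manf at 371, 355, 680.4 and 564 against 848 and 504 (log2 0.37, SE 0.37, -0.36 to 1.11, adjusted p = 0.877). Both PPTx samples of Hsp90b1 lay above the highest control sample, as in 4.57% of the 328 genes tested, and the other two genes overlapped. In the edgeR fit over all samples, Xbp1 had the largest difference of the 6 members tested, and a negative one. It was at 495, 355, 552 and 451 in control and at 149.6 and 419.9 in PPTx (log2 -0.58, SE 0.50, -1.55 to 0.40, adjusted p = 0.841 in edgeR). In DESeq2 the difference of Hsp90b1 (0.58) was larger in size than that of Xbp1 (-0.55). With a sample left out, Xbp1 ran from -1.62 (without PPTx replicate 3) to -0.084 (without PPTx replicate 2) in edgeR where it could be fitted. Canx was at 0.31 on the log2 scale. Calr was at -0.014, but at -1.20 without PPTx replicate 3 and at 0.54 without PPTx replicate 2. EdgeR called 0 of the 6 members tested, with 0 at an unadjusted p under 0.05, DESeq2 called 0, and 0.305% of all genes were called. The intervals of Hspa5, Hsp90b1 and Manf include both 0 and the β-cell values. With single samples left out, the log2 difference ran from 0.09 to 0.45 for Hspa5, from 0.33 to 0.70 for Hsp90b1 and from -0.04 (without PPTx replicate 2) to 0.68 for Manf. Without control replicate 3, Hsp90b1 alone of the 5 members tested had an unadjusted p under 0.05 (0.048, adjusted p = 0.762 in edgeR). Without either PPTx sample, the lone one left is assumed to vary like the controls.

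Whether the PPTx difference itself differed between non-β and β-cells was tested as an interaction over both classes. Hsp90b1 had an interaction of -0.58 on the log2 scale (SE 0.21, 95% interval -0.99 to -0.17, unadjusted p = 0.00621, adjusted p = 0.313 in edgeR), Hspa5 of -0.55 (SE 0.22, -0.98 to -0.12, unadjusted p = 0.0122, adjusted p = 0.387) and Manf of -0.46 (SE 0.24, -0.92 to 0.01, adjusted p = 0.64). All 3 are below 0, that is, PPTx stood further above control in β-cells than in non-β cells, but 0 of 9 genes passed the adjustment over 3935 genes, of which 0.229% were called. At an unadjusted p under 0.05 there were 2 of the 9, beside 7.9% of all genes, and DESeq2 called 0. After cells were thinned to equal UMIs the Hsp90b1 interaction was -0.95 with an adjusted p of 0.0202 in edgeR, and over its 8 alternatives the adjusted p ran from 0.0202 to 1.

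Within β-cells the genes were last compared from cell to cell, as Spearman correlations in each sample over 860 cells thinned to 1100 UMIs outside hormones. Values are given as a description: cells of a sample share a library, and sparse counts hold correlations near 0. Over the 45 pairs of the 10 genes the median correlation was 0.0072, with an SD of 0.0146 over the 8 samples, beside a median of -0.0048 over all pairs of 2025 genes found in at least 10% of thinned β-cells. For the 8 members that meet the same limit the median over 28 pairs was 0.0196. The 5 highest values were those of chaperone pairs. Hspa5 with Hsp90b1 had a median of 0.20, from 0.03 to 0.31, and was the only one of 36 pairs with values in all samples that was positive in 8 of 8. Hspa5 with Manf had 0.16 and Hspa5 with Calr 0.15, each positive in 7 samples, and Hsp90b1 with Manf had 0.13 and Calr with Manf 0.11, each positive in 6. These 5 pairs lay above the 99th percentile of all gene pairs, 0.0986. Hsp90b1 with Calr, at 0.066, lay below Manf with Xbp1 (0.097), Calr with Canx (0.087) and Calr with Xbp1 (0.075). Hspa5 with Canx (-0.01), Hspa5 with Atf6 (-0.00292) and Hsp90b1 with Wfs1 (-0.02) lay near 0. Without thinning the median over pairs was 0.200 and that of Hspa5 with Hsp90b1 was 0.557. In non-β cells, which pool α-, δ- and PP cells, 6 samples held at least 20 thinned cells, 227 in all, with 23 to 62 in a sample. There Hspa5 with Hsp90b1 had a median of -0.0019, from -0.26 to 0.38 and positive in 3 of 6 samples, and Hspa5 with Calr had 0.0051. Hspa5 with Xbp1 (0.26, positive in 5 samples) and Hspa5 with Manf (0.20, positive in 4) were the highest of the non-β pairs. The median over the 45 pairs was 0.023, and 0 of the 21 with a value in all 6 samples were positive in all of them. The difference between β and non-β correlations was not tested.

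**Figure D4:**
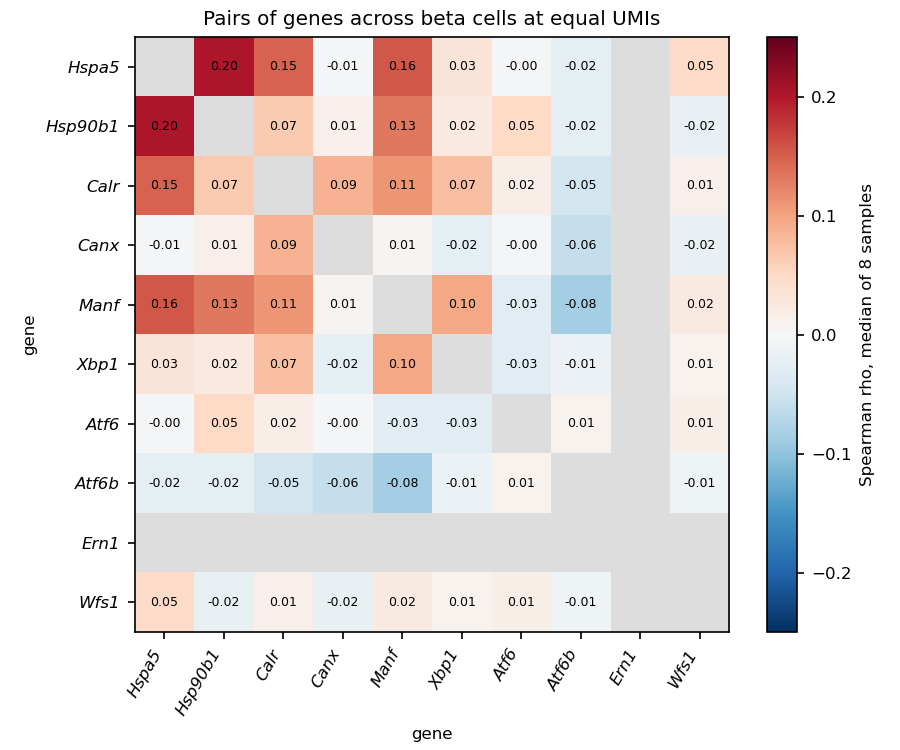
Median Spearman correlation over 8 samples between the 10 genes in thinned β-cells, on a color scale; grey cells have no value in all 8 samples. The warmest cell is that of Hspa5 and Hsp90b1, at 0.20, and Manf with Atf6b, at -0.085, is the lowest of the 36 pairs with a value in all samples.

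The spread between β-cells at equal UMIs is given as the variance of UMIs over their mean, which is 1 for counting error alone. It had a median over samples of 1.59 for Hspa5, 1.46 for Manf and 1.43 for Hsp90b1, which are also the 3 with the highest mean, at 2.50, 1.84 and 1.52 UMIs per thinned cell. It was 1.15 for Canx, 1.08 for Calr and 1.06 for Xbp1. Atf6, at 1.05, and Atf6b, at 1.01, had means of 0.136 and 0.101 UMIs, and Wfs1, at 1.0008, had a mean of 0.292. Sparse counts hold this ratio near 1, so the genes are not ranked by it. The genes whose cell-to-cell pattern was most like the summed UMIs of the 10, each member being left out of its own sum, were ranked over the 2025 genes by their median correlation in 8 samples. Hspa5 ranked 1 (0.255), Manf 6 (0.181), Calr 28 (0.133) and Hsp90b1 153 (0.0792). The other 4 members ranked lower, Canx at 348 (0.0502), Wfs1 at 449 (0.0407), Atf6 at 469 (0.039) and Xbp1 at 759 (0.0179), and Atf6b and Ern1 were found in too few cells to be ranked. Sparse counts hold these correlations near 0 too: Atf6 had 0.149 and Wfs1 0.293 UMIs per thinned cell, beside 2.66 for Hspa5. Each member was set against a different, reduced sum and other genes against the full sum, so the ranks are not strictly comparable. The 10 highest genes outside the list were Pdia6 (0.234), Gng12 (0.207), Cpe (0.192), Ssr4 (0.183), Tmed3 (0.175), Dad1 (0.173), Creld2 (0.162), Fkbp11 (0.161), Ptprn (0.158) and Kdelr2 (0.158).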

How the data were processed

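Islet cells of 4 control and 4 PPTx samples were measured. Per the labels and the paper's methods, the authors converted reads with bcl2fastq v2.20.0.422 and counted UMIs per gene and cell on mm10 with Cell Ranger v2.1.0, and they deposited raw UMI counts. The labels name a Chromium kit and the methods a ddSEQ isolator with a SureCell kit, which was not resolved.

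Cells below 100 or above 3000 genes, or below 100 or above 20000 UMIs, were left out. Doublets were not called, and cells with no hormone at 2 times the next were set aside as mixed. Raw counts were summed per sample and class, and genes with low counts were removed by filterByExpr. Sums were scaled by TMM and tested with the quasi-likelihood test of edgeR 4.0.16 in R 4.3.3 at an adjusted p of 0.05, with sample as a block between classes. Benjamini-Hochberg adjustment ran over all genes tested. DESeq2 1.42.0 was an alternative. Genes outside a fit had an exact two-sided permutation test, of group labels for PPTx against control and of signs within samples between classes. Alternatives changed the test, the scaling, the low-count filter, the ratio between hormones, the depth per cell, the block and the samples. Scripts were tested on simulated data. Intervals of log2 differences are 1.96 standard errors of the fit over samples, and Poisson intervals (scipy 1.17.1) and floors cover counting error only. Kept cells had at least 2005 UMIs, and thinning to 1100 UMIs outside hormones left out 33 control and 67 PPTx cells. The 10 genes and the lists were chosen with earlier results of these data known. Genes named outside the 10 were the called or most changed genes of the pathway lists and the 10 most alike from cell to cell. Promoters came from RefSeq tables of GRCm38.p6.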

Additional observations from a re-analysis of the deposited data

Results flagged for a closer look

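Across 60 groups of 4 samples, 6 had a sample far from the others by Dixon's criterion, where chance gives about 1 in 20. Of these, 5 concern Ern1, whose counts are so low that a single sample with 1 or 2 UMIs stands out. They were control replicate 4 in β-cells (2.91 CPM, 1 UMI), in α-cells (37.6, 2 UMIs) and in non-β cells (19.1, 2 UMIs), and PPTx replicate 2 in PP cells (8.65, 1 UMI) and in non-β cells (14.7, 2 UMIs), while the other samples of each group were at 0. The non-β values repeat cells of the α and PP classes. Wfs1 in the non-β cells of control replicate 1 stood at 215 CPM from 3 UMIs, with the other controls at 19.1 to 44.9. The β-cell markers in these non-β cells stood at 12417 CPM, the highest of the 4 controls, whose median was 5037, and their part in the Wfs1 value was not tested.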

How the results depend on the processing

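The 5, 5 and 6 genes of the 10 called lower in α-, PP and non-β cells kept their calls in all 72, 79 and 99 recomputed values, those too sparse to be fitted under an alternative aside. Counts of genes called moved as follows. With no filter on low counts they were 1536 for PP cells against β-cells (902 as reported), 1332 for α-cells (775), 1969 for non-β cells (1166), 33 for α-cells against PP cells (64), 89 for PPTx in β-cells (17) and 7 in non-β cells (11). With cells thinned to equal UMIs they were 335, 378, 491 and 15 for the first 4 of these. With DESeq2 they were 24 for α-cells against PP cells, 26 for PPTx in β-cells, 6 in non-β cells, 0 in PP cells (1) and 1 for the interaction (9). With hormones kept in the totals, or with Iapp, Pyy and Ghrl also left out, PPTx in PP cells gave 0, and with no ratio between hormones the interaction gave 15.

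Of the 10 genes, α-cells against β-cells gave 3 calls of 6 tested thinned, beside 378 of 843 genes, and 9 of 10 unfiltered, beside 1332 of 14002 (5 of 8 as reported), and the interaction gave 1 of 7 thinned, beside 7 of 1523 (0 of 9). Unfiltered, the median log2 difference over all genes was -0.52 in α-cells. PPTx in β-cells (0 of 9) gave 2 of 9 with DESeq2, beside 26 of 5845, 2 of 10 unfiltered, beside 89 of 14137, and 1 of 9 each when thinned (13 of 2434), with β-cells of at least 10% insulin (18 of 5751) or with a ratio of 4 (18 of 5762). Hspa5 in PPTx β-cells had an adjusted p of 0.0113 in DESeq2, 0.0332 thinned, 0.0443 with that insulin limit, 0.0133 unfiltered and 0.0455 with the ratio of 4, and Hsp90b1 had 0.0386 in DESeq2 and 0.0253 unfiltered. Signs turned for Canx (0.0027, no ratio) and Xbp1 (0.11, thinned) in PP cells against β-cells, Xbp1 in non-β cells (0.0031, thinned), and, for PPTx, Hsp90b1 in PP cells (0.10, unfiltered) and in non-β cells (-0.32, thinned) and Wfs1 in β-cells (0.0084, no limits on cells). None of these signs belonged to a called value. The median correlation was 0.200 without thinning. The insulin limit and the omission of Iapp, Pyy and Ghrl were chosen after seeing the data. The causes were not tested.

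With single samples left out, genes called ran from 447 to 862 for α-cells against β-cells, 1 to 20 for PPTx in β-cells, 4 to 27 in non-β cells, 0 to 1 in PP cells and 3 to 10 for the interaction, and the PPTx β-cell calls of the 10 genes from 0 to 1. In PP cells against β-cells Canx ran from -0.19 to 0.044 and Xbp1 from -0.14 to 0.082. For PPTx in β-cells Atf6 ran from -0.064 to 0.24, Atf6b from -0.32 to 0.031, Wfs1 from -0.12 to 0.038 and Xbp1 from -0.13 to 0.021. In non-β cells Hsp90b1 ran from -0.10 to 0.17, Hspa5 from -0.051 to 0.17 and Manf from -0.053 to 0.047, and in PP cells Hsp90b1 from -0.17 to 0.080.

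The replicate numbers are shared by control and PPTx samples without a stated pairing. Same-numbered samples correlated at 0.046, 0.029, 0.090 and 0.15 in β-cells. Control replicates 1, 3 and 4 correlated best with their own number and control replicate 2 with PPTx replicate 3 (0.072). Pairing was taken as shown only where every pair exceeded 0.1, so they were not treated as pairs. With the replicate block 35 of 5845 genes and 3 of 9 members (Hspa5 0.00489, Hsp90b1 0.0351, Manf 0.0246 as adjusted p) were called in β-cells and 4 genes in PP cells, and in non-β cells Hsp90b1 was at -0.0077 and Manf at 0.0101. Tests of PPTx in δ-cells and of δ-cells against other classes were not run because too few samples held 5 cells. For α-cells the planned rule gave values only, and the test with 2 PPTx samples was added after seeing the data. Ern1, Atf6b and, outside β-cells, Atf6 and Wfs1 rest on the fewest UMIs.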
